A study of Ovis aries and Mus musculus with 20 samples.

Results

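Fat of mouse and sheep was compared here for the scale at which its genome is folded, from 11 *in situ* Hi-C libraries among the 20 samples of the series. The libraries were chosen by assay, as every mouse and sheep library with a deposited A-B index. Mouse was represented by 2 libraries of subcutaneous fat from the inguinal depot (inguinal white adipose tissue, iWAT), each from a pool of 10 female Kunming mice of 32 weeks. Sheep was represented by 9 libraries from 3 female Small-tail Han sheep of 2 years, with 1 library of each visceral depot per animal. The depots were the fat of the greater omentum (GOM), of the mesentery (mesenteric adipose, MAD) and of the retroperitoneum (retroperitoneal adipose, RAD). Nuclei of both species came from the layer of fixed tissue that contained adipocytes. Species, body site, pooling of animals and genome assembly differ together between the groups and cannot be told apart.

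Chromosomes of the interphase nucleus are sorted into an A compartment, which is gene-rich, early replicating and largely transcribed, and a B compartment, which is gene-poor and tends to lie at the nuclear lamina. Within compartments the chromatin fibre forms topologically associating domains (TADs), stretches that contact themselves more than their neighbours and whose boundaries are often set by CTCF and cohesin. Fat cell identity genes, such as those for lipid droplet proteins, usually lie in the A compartment of adipocytes, and long genes of neurons usually in B.

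The A-B index is a signed score for each 20-kb bin, above 0 where the bin contacts A regions of its own chromosome more than B regions. A run is a stretch of adjacent bins of the same sign, and the run N50 is the run length for which 50% of all bins lie in runs at least as long. The mouse autosomes held 123133 bins, of which 3385 overlapped assembly gaps and were left out, which left 119748 bins or 2395 Mb. The 26 sheep autosomes held 132797 bins or 2656 Mb. Some further bins carried values on a smooth curve near 0, as the bins inside mouse gaps do, and are called placeholder bins below. No source used here says that they are filled-in values, so the name rests on that likeness alone. They made up 0.984 to 1.04% of bins in the mouse libraries and 1.96 to 2.21% in the sheep libraries. In sheep most of them stood alone (1534 to 1679 of 2606 to 2935), so that a placeholder of the opposite sign cut a longer run. Values without them are therefore given beside the main ones. Sequencing depth is not contained in the index values. The study counts contacts per library, which were not used here, and the part of depth in the results was not tested.

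Compartment runs were longer in mouse iWAT than in sheep fat at the resolution of 20 kb. The run N50 was 2180 kb in mouse pool 1 and 2160 kb in pool 2. In sheep it was 1040, 1120 and 1100 kb in the GOM of animals 1, 2 and 3, 1020, 1020 and 1120 kb in the MAD, and 1000, 1060 and 1140 kb in the RAD. All sheep libraries therefore lay below both mouse pools, with no overlap. The mean was 2170 ± 14.1 kb in mouse (SD, *n* = 2 pools) and 1069 ± 50.0 kb in sheep (SD, *n* = 3 animals, each the mean of its depots), a ratio of 2.03. The exact permutation test gave *p* = 0.1 (two-sided), which is the smallest value that 2 against 3 units allow, and the adjusted *p* over the 5 measures tested was also 0.1. With libraries in place of animals as units, the exact permutation *p* was 0.0182, the smallest of 55 divisions, although libraries of the same sheep are not independent. Without placeholder bins, and with runs joined across them, the N50 was 2330 ± 14.1 kb in mouse and 1460 ± 78.6 kb in sheep, a ratio of 1.60.

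**Figure D1:**
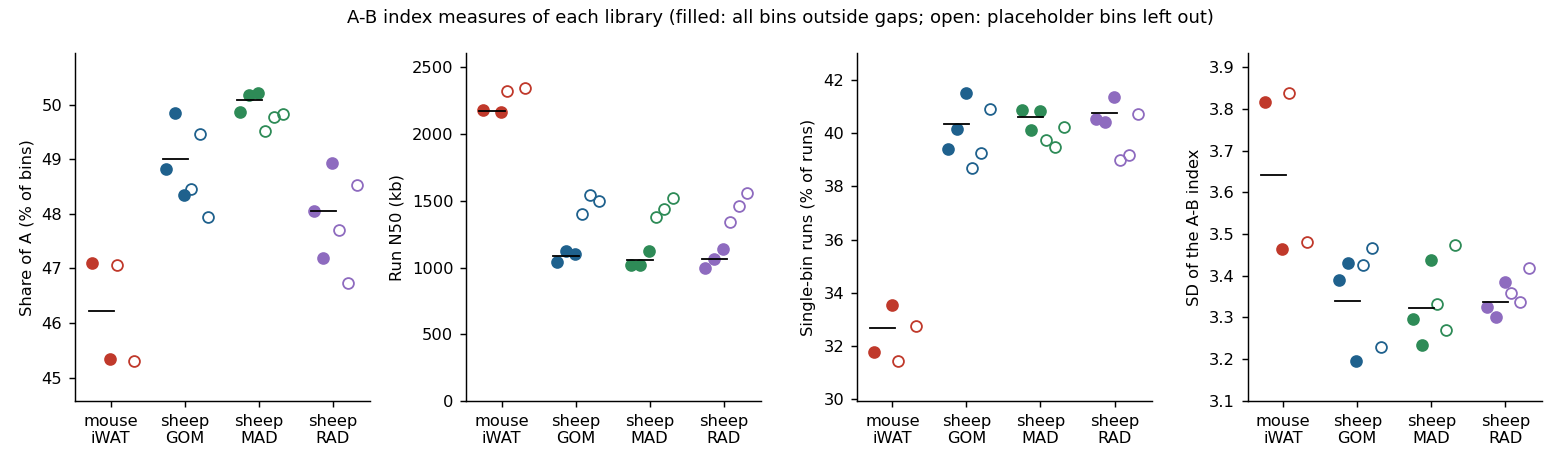
Share of A, run N50, share of runs that are 1 bin long, and SD of the A-B index for each of the 11 libraries (points), by species and depot on the horizontal axes, with the mean of the filled points as a line. Filled points use all bins outside mouse gaps and open points leave out placeholder bins. The N50 of the mouse pools lies above 2000 kb and that of every sheep library below 1600 kb under both settings, whereas the mouse and sheep libraries lie close together in share of A and in SD.

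The difference in N50 depended on the resolution at which the sign was read. When the index was averaged over 100-kb windows, the N50 was 2750 kb in mouse and 2811 kb in sheep, with an exact permutation *p* of 0.6. Without placeholder bins, the ratio of mouse to sheep N50 fell from 1.60 at 20 kb to 1.29 at 40 kb, 1.12 at 60 kb and 1.01 at 100 kb. It was 1.01 at 200 kb and 0.995 at 400 kb, and from 100 kb upward the libraries of the species overlapped. At 100 kb the pools had an N50 of 2800 and 2900 kb and the sheep libraries 2600 to 3000 kb. The number of runs per 100 Mb converged more slowly, from 183 ± 10.0 in mouse and 329 ± 8.79 in sheep at 20 kb to 76.5 ± 0.747 and 87.5 ± 3.71 at 100 kb. At 400 kb it was 44.1 ± 1.13 in mouse and 43.2 ± 1.36 in sheep. The N50 thus separated the species in windows of up to 60 kb, and not in windows of 100 kb and wider.

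**Figure D2:**
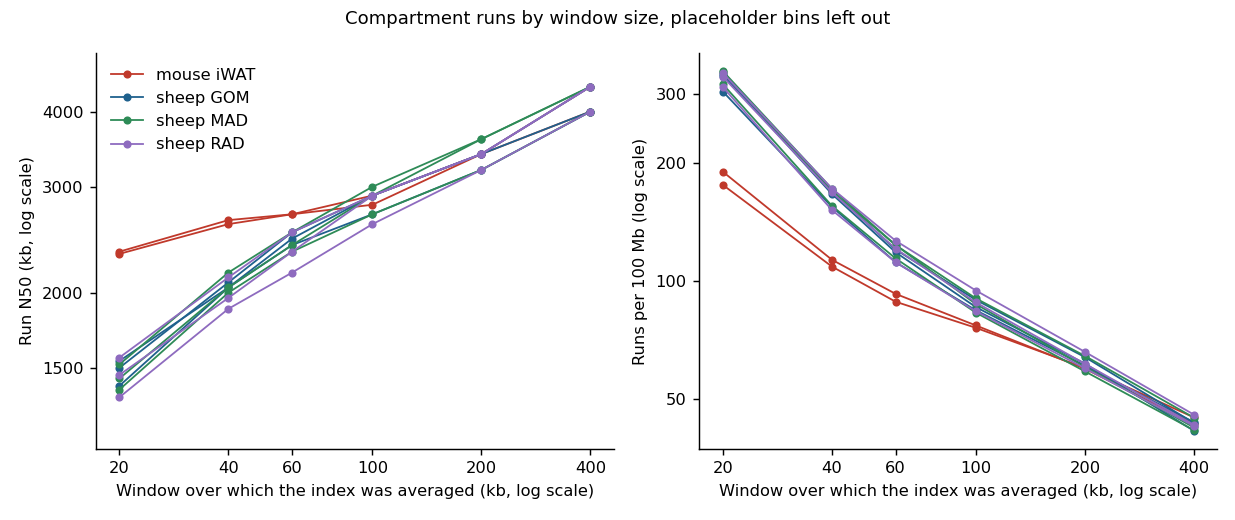
Run N50 in kb (left) and runs per 100 Mb (right) of each library against the size of the window over which the index was averaged, from 20 to 400 kb, with all axes on log scales and placeholder bins left out. The mouse lines start at 2320 and 2340 kb against 1340 to 1560 kb in sheep, and the lines meet at 100 kb.

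Averaging libraries had an effect of the same direction as widening the window. The mean index of the 9 sheep libraries gave an N50 of 2080 kb without placeholder bins, against 1340 to 1560 kb in the single libraries. The mean of the 3 libraries of a depot gave 1920 kb in GOM, 1940 kb in MAD and 1880 kb in RAD. The mean of the 2 mouse pools gave 2440 kb. The share of runs that were 1 bin long was 24.2% in the mean of the 9 sheep libraries and 25.5% in the mean of the mouse pools, so on this measure the order of the species was reversed when 9 sheep libraries were set against 2 mouse pools. With equal numbers the order held. Maps of 2 averaged libraries, with placeholder bins kept, had 26.6% of single-bin runs in mouse and 37.3% in sheep (means over pairs of sheep of the same depot), and an N50 of 2300 and 1260 kb.

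Short runs were more numerous in sheep in every single library. Runs of 1 bin made up 31.8% and 33.5% of runs in the mouse pools and 39.4 to 41.5% in the sheep libraries. The means were 32.7% ± 1.23 (SD, *n* = 2) and 40.6% ± 0.565 (SD, *n* = 3), with an exact permutation *p* of 0.1, and 32.1% and 39.7% without placeholder bins. The median run was 80 and 60 kb in the mouse pools and 40 kb in each sheep library (70 ± 14.1 kb against 40 kb with no spread, exact permutation *p* = 0.1), also without placeholder bins. Although numerous, runs of 1 bin held few bins, 1.30% in mouse and 3.30% in sheep. Runs of at least 100 bins, that is 2 Mb, held 52.2 and 52.4% of bins in the mouse pools, but 27.0% in sheep with a range of 23.8 to 29.6%. Without placeholder bins these shares were 54.5% and 38.5%.

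**Figure D3:**
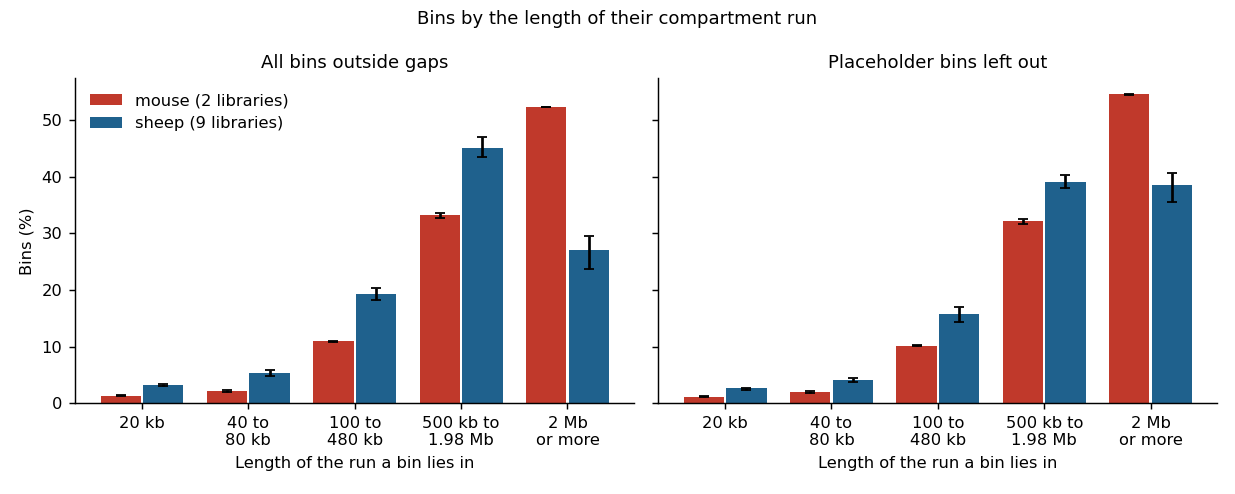
Percentage of bins (vertical axes) by the length of the run they lie in (horizontal axes), with all bins outside gaps on the left and without placeholder bins on the right. Bars give the mean over the 2 mouse or 9 sheep libraries and whiskers the lowest and highest library. Runs of 2 Mb or more held 52.3% of mouse bins and 27.0% of sheep bins on the left, and 54.5% and 38.5% on the right.

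Without placeholder bins, short runs were poorly shared between replicates in both species, and in all bins they lay close to 0. The mean distance of the index from 0 in A runs of 1 bin was 0.242 in mouse and 0.331 in sheep, whereas in A runs of 2 Mb or more it was 3.65 and 3.46. In B runs of 1 bin it was 0.322 and 0.491. Without placeholder bins, which lie near 0 by definition, A runs of 1 bin had 0.269 and 0.444. Bins of 1-bin runs had the same sign in the other mouse pool in 40.9% of cases, and in another animal of the same sheep depot in 40.6% (39.2 to 42.7% over 9 pairs). For bins in runs of at least 25 bins these values were 98.8% and 98.1%. Over all run lengths, 96.5% of bins had the same sign in both mouse pools and 93.8% in sheep libraries of the same depot. Pearson's *r* over all bins outside gaps was 0.988 and 0.965. The index also changed less from bin to bin in mouse. The correlation between adjacent bins was 0.988 ± 0.00150 in mouse and 0.956 ± 0.00198 in sheep, and that between bins 1 Mb apart was 0.523 ± 0.00839 and 0.462 ± 0.0119. These correlations are over bins of the same library, which are not independent, and are given as a description.

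A and B runs differed in how far the species were apart. The N50 of A runs was 2290 ± 99 kb in mouse and 1384 ± 75.8 kb in sheep, and that of B runs was 2050 ± 99 and 876 ± 36.7 kb. A runs were therefore 1.12 ± 0.102 times as long as B runs in mouse and 1.58 ± 0.0328 times in sheep. Without placeholder bins the sheep values rose to 1616 ± 66.8 kb for A and 1342 ± 84.4 kb for B, with a ratio of 1.21 ± 0.0380, close to the mouse ratio of 1.09 ± 0.127. Leaving out placeholder bins thus lengthened the B runs of sheep more than its A runs.

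The share of A was lower in mouse than in sheep by a few percentage points. It was 47.1% in pool 1 and 45.3% in pool 2. It was 48.3 to 49.8% in GOM, 49.9 to 50.2% in MAD and 47.2 to 48.9% in RAD. The lowest sheep library, the RAD of animal 2, lay just above mouse pool 1. Without placeholder bins that library had 46.7% and mouse pool 1 47.1%, so the libraries of the species overlapped, and the means were 46.2% and 48.7%. The means were 46.2% ± 1.24 (SD, *n* = 2) and 49.0% ± 0.126 (SD, *n* = 3), with an exact permutation *p* of 0.1. Within the range of chromosome lengths that both species share, 60 to 200 Mb, the sheep mean was 47.1%. The sheep depots were ordered MAD (50.1% ± 0.193), GOM (49.0% ± 0.772) and RAD (48.1% ± 0.872, each SD, *n* = 3). Same-numbered libraries come from the same animal. The exact permutation *p* of this depot difference was 0.0464, adjusted to 0.139 over 3 measures. With the animal as a replicate block, which removes the spread between animals, the exact permutation *p* was 0.139 before adjustment. The depots were therefore not separated at 0.05 in either form. Leaving out 1 library raised the unadjusted *p* above 0.05 in 6 of 9 cases (GOM of animal 1, each MAD, and RAD of animals 1 and 2), to 0.0607 to 0.114. The N50 of the depots was 1087 ± 41.6 kb in GOM, 1053 ± 57.7 kb in MAD and 1067 ± 70.2 kb in RAD (exact permutation *p* = 0.804). The SD of the index by depot was 3.34 ± 0.126, 3.32 ± 0.105 and 3.34 ± 0.0426 (exact permutation *p* = 0.979).

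The index was spread a little more widely in mouse, and its distribution had another shape. The SD over bins was 3.82 and 3.46 in the mouse pools and 3.20 to 3.44 in the sheep libraries, with means of 3.64 ± 0.249 and 3.33 ± 0.00935 (exact permutation *p* = 0.1). The second pool lay just above the highest sheep library. Without placeholder bins the means were 3.66 and 3.37, and the second pool (3.48) still lay above the highest sheep library (3.47). In mouse the values fell into a broad A and a broad B group, with an excess kurtosis of -1.06 and 15.4% of bins within 1 unit of 0. In sheep the excess kurtosis, which weighs bins far from 0 heavily, was 3.09 (1.38 to 6.85 over libraries). There 20.8% of bins lay within 1 unit of 0. A shallower dip between 2 groups was also seen in sheep libraries. Among them were GOM of animals 1 and 2, MAD of animals 1 and 3 and RAD of animal 3. The depth of the dip varied between libraries and was not tested. Without placeholder bins, steps of equal width held 5.31% of bins from -5, 3.39% from -0.5 and 4.48% from 3.5 in mouse pool 1. In GOM of animal 2 they held 4.89% from -3.5, 4.22% from 1 and 4.85% from 3. The quartiles were -3.74 and 2.65 in mouse and -2.70 and 2.43 in sheep, so the central bins of mouse lay further from 0, and more so on the B side. The tails were longer in sheep. The index ran from -13.24 to 10.99 in mouse and from -45.4 to 32.9 in sheep, and 17 and 48 bins of the mouse pools but 222 to 301 bins of each sheep library lay more than 10 units from 0. On sheep chromosome 14 such bins made up 3.65% ± 0.488 (SD, 9 libraries).

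Run N50 went with autosome length in opposite directions in mouse and sheep. In mouse the rank correlation of run N50 with autosome length was 0.436 and 0.469 in the pools over 19 autosomes. In sheep it was negative in each library, -0.543 to -0.246 over 26 autosomes, with a mean of -0.416, and the mean was -0.604 without chromosomes 1 to 3, the long metacentric chromosomes of sheep. Autosomes of a library share the library and its coarse regions, so these values are descriptions. In mouse the N50 was highest on chromosome 11 (3450 ± 269 kb, SD, *n* = 2) and lowest on chromosome 19 (1140 ± 84.9 kb), the shortest autosome. In sheep it was highest on chromosome 11 (2549 ± 289 kb, SD, 9 libraries), which is 60.98 Mb long, and lowest on chromosome 8 (760 ± 70.0 kb). The share of A ran from 39.6% ± 1.60 on mouse chromosome 14 to 56.2% ± 0.809 on chromosome 7, and from 34.9% ± 1.69 on sheep chromosome 17 to 57.3% ± 1.40 on chromosome 2. The SD of the index was highest on mouse chromosome 11 (4.34 ± 0.263) and sheep chromosome 14 (4.80 ± 0.304), and lowest on mouse chromosome 13 (2.75 ± 0.219) and sheep chromosome 6 (2.70 ± 0.145). Its rank correlation with autosome length was 0.0912 and 0.151 in the mouse pools and -0.561 to -0.427 in the sheep libraries. For the share of A the rank correlation was positive in both species, 0.526 and 0.542 in the mouse pools and 0.160 to 0.282 in the sheep libraries. Within the sheep autosomes of 60 to 200 Mb its mean was -0.319.

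**Figure D4:**
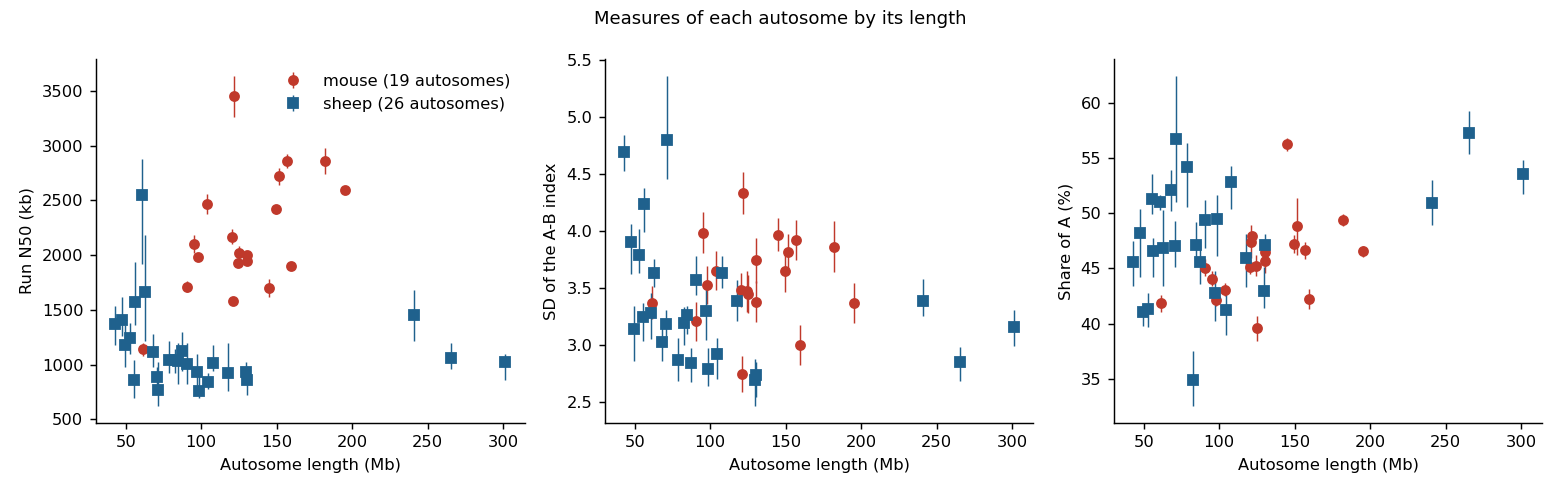
Run N50 in kb, SD of the A-B index and share of A in percent (vertical axes) of each autosome against its length in Mb, for 19 mouse autosomes (circles) and 26 sheep autosomes (squares). Points give the mean over the libraries of the species and bars the lowest and highest library. The mouse N50 lies higher on longer autosomes, with a rank correlation of 0.436 and 0.469 in the pools, and the sheep N50 is highest on autosomes shorter than 70 Mb.

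The longest stretches of constant sign were gene-rich A blocks and gene-poor B blocks in mouse. Bins with the same sign in both pools made up 96.4% of mouse bins, and bins with the same sign in all 9 libraries made up 79.96% of sheep bins. In mouse (GRCm39) the longest shared A run lay on chromosome 4 from 128360001 to 142220000 (13.86 Mb), with an index of 3.63 and 4.12 in the pools and 264 protein-coding genes, the longest of which was *Kazn*. The next were on chromosome 9 from 55660001 to 68020000 (12.36 Mb, 144 genes) and on chromosome 2 from 24520001 to 36140000 (11.62 Mb, 257 genes, index of 5.88 and 6.77). The longest shared B run lay on chromosome 11 from 6620001 to 19860000 (13.24 Mb, 33 genes, index of -4.96 and -4.72). It was followed by chromosome 15 from 12900001 to 25320000 (12.42 Mb), whose 6 genes include the cadherins *Cdh12* and *Cdh18*, cell adhesion molecules of neurons. The last was chromosome 14 from 87800001 to 99260000 (11.46 Mb), with 5 genes, the longest of which was *Pcdh9*, a protocadherin. GC content was 49.0, 45.4 and 48.6% in these A runs and 40.1, 37.0 and 36.6% in these B runs.

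In sheep (Oar_rambouillet_v1.0) the longest run of A in all 9 libraries lay near the end of chromosome 3, from 227340001 to 238240000 (10.90 Mb), with an index of 3.88 to 4.83. Those on chromosome 1 from 204800001 to 210760000 and from 285400001 to 291140000 were 5.96 and 5.74 Mb long. The longest B runs were on chromosome 6 from 55520001 to 61080000 (5.56 Mb, index of -3.75 to -2.82), chromosome 6 from 83540001 to 88620000 (5.08 Mb) and chromosome 1 from 85380001 to 88900000 (3.52 Mb). These are shorter than the mouse runs, but they had to keep their sign in 9 libraries and not 2. Without placeholder bins the first A run was followed by chromosome 2 from 253480001 to 261120000 (7.64 Mb) and chromosome 7 from 10400001 to 17080000 (6.68 Mb). The longest B runs were then that same first run and runs of 6.18 Mb on chromosome 12 and 5.70 Mb on chromosome 9. Genes of the sheep runs were not analysed here.

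Genes of fat cells lay mostly in A in the mouse map. Each gene was given an index and a run per pool, and that run need not cover the whole gene. A single run length given for a gene is the mean of the pools. Of 28 fat cell genes, 27 lay in A in both pools, and the median run around them was 2605 kb. The longest runs held *Gpd1*, which makes the glycerol backbone of triglycerides (7840 kb, index of 4.04 and 3.38), and *Cebpb*, a transcription factor of early adipogenesis (7720 kb, index of 7.30 and 5.91). The shortest runs were those of *Cd36* and *Rbp4*. *Cd36*, a fatty acid transporter, had an A run of 300 kb in pool 1 and 60 kb in pool 2 (index of 1.51 and 0.342). The gene, from 17986432 to 18094067 on chromosome 5, is longer than its run in pool 2. *Rbp4*, the retinol carrier, had a B run of 120 and 300 kb (index of -1.22 and -1.39). *Rbp4* was the single fat cell gene in B. All 25 genes used by every cell also lay in A, with a median run of 3250 kb, from *Psmb4*, a proteasome subunit, in a run of 60 kb to *Vps29*, a retromer subunit, in a run of 8200 kb. Of all protein-coding genes, 15567 of 20592 lay in A in both pools (75.6%), with a median run of 2195 kb. Genes of fat progenitors lay in A in 9 of 10 cases, with *Pi16* in 8450 kb, *Pdgfra* in 4150 kb and *Dlk1* in 240 kb, and *Dpp4* lay in B close to 0 (index of -0.0499 and -0.238).

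Long neuronal adhesion and synapse genes stood on the opposite side, with 23 of 25 in B in both pools and a median run of 3510 kb. Of all protein-coding genes, 4464 of 20592 lay in B in both pools. *Cdh12* and *Cdh18* lay in the longest run (12440 kb as the mean of the pools, index of -5.67 and -5.48 for *Cdh12* and -6.43 and -5.98 for *Cdh18*). *Negr1*, a cell adhesion gene near which variants for body weight lie in humans, had an index of -2.88 and -2.55 in a B run of 2410 kb. *Ctnna3* and *Dlg2* were those assigned to A, with *Dlg2* in the shortest run of the list (1450 kb, index of 2.69 and 2.91). *Dlg2*, from 90125880 to 92098455 on chromosome 7, is longer than that run, so part of the gene lies outside it.

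Markers of other cells that fat tissue can hold lay in A in 57.1 to 87.5% of cases per list, where 75.6% of all protein-coding genes did. With 7 or 8 genes per list, these shares were not tested against that of all genes. Of 8 macrophage and leukocyte genes 5 lay in A. *Cd14* lay in an A run of 4490 kb and *Adgre1* in a B run of 5860 kb, whereas *Ptprc*, which encodes CD45, and *Mrc1* lay in B runs of 250 and 460 kb. *Mrc1* was close to 0 (index of -0.622 and -0.0180), and its run was 80 kb in pool 1 and 840 kb in pool 2. Of 8 lymph node genes 7 lay in A, with *Cd3e* and *Cd3d* of the T cell receptor complex in 5640 kb and *Cd4* in 1700 kb, and *Ms4a1*, which encodes CD20, was in B in 680 kb. Of 7 endothelial genes 6 lay in A, with *Kdr* in 4150 kb, *Emcn* in 3570 kb and *Cldn5* in 290 kb, and the receptor gene *Tek* lay in B in 130 kb. The index of *Tek* was -0.515 and -0.562, and its run was 20 kb in pool 1 and 240 kb in pool 2. Of 8 mammary epithelial genes 6 lay in A, among them the keratins *Krt8*, *Krt18* and *Krt5* in 1 run of 7840 kb. *Csn2*, a milk casein, lay in B (index of -2.66 and -3.39, 1650 kb), and *Krt14* had an index of -0.0227 and 0.216. Of 7 skeletal muscle genes 4 lay in A, with *Acta1* in 5150 kb and *Tnnt3* in 4580 kb, and the myosin genes *Myh1* and *Myh4* (1010 kb) and *Ttn* (370 kb) lay in B. No expression was measured in these mouse pools among the files used here, so the tissue label could not be checked against marker expression.

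TADs were longer in mouse than in sheep, and mainly so in the B compartment. TADs were called on 1 merged map per group, so there is no replicate error and no test. The merged mouse map held 2979 TADs with a median of 540 kb (quartiles 400 and 840 kb). The sheep maps held 4387 in GOM, 4166 in MAD and 4187 in RAD, with medians of 480, 500 and 500 kb. Mouse TADs thus exceeded the mean of the sheep medians by 46.7 kb, or 1.09 times, where the SD of the sheep medians was 11.5 kb. The lower quartile was 400 kb in mouse and 360 kb in each sheep map, and the upper quartile was 840 kb against 660 to 715 kb. The length-weighted median was 900 kb in mouse and 640 to 680 kb in sheep. TADs over 2 Mb numbered 153 in mouse (5.14%) and 43 to 59 in sheep (0.980 to 1.41%), and without them the medians were 520 kb and, as a mean of the sheep maps, 493 kb. TADs covered 95.2 to 96.0% of the length of the bins used in each map, and the 78 mouse TADs that overlapped a gap were counted in full.

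Each TAD was assigned to A or B where at least 90% of its bins, by the mean index of its group, had that sign. TADs in A had a median of 480 kb in mouse and 440, 460 and 460 kb in GOM, MAD and RAD, a ratio of 1.06 to the sheep mean. TADs in B had a median of 780 kb in mouse and 540, 560 and 560 kb in sheep, a ratio of 1.41. TADs of mixed sign had medians of 560 kb in mouse and 500 to 520 kb in sheep. TADs in A made up 49.8% of TADs and 35.4% of TAD length in mouse, and TADs in B 26.3% and 42.5%. In sheep A TADs made up 41.9 to 43.9% of TADs and B TADs 31.9 to 33.1%. Of the TADs over 2 Mb, 127 of 153 lay in B in mouse (83.0%), and 32 of 43, 36 of 50 and 46 of 59 in GOM, MAD and RAD.

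**Figure D5:**
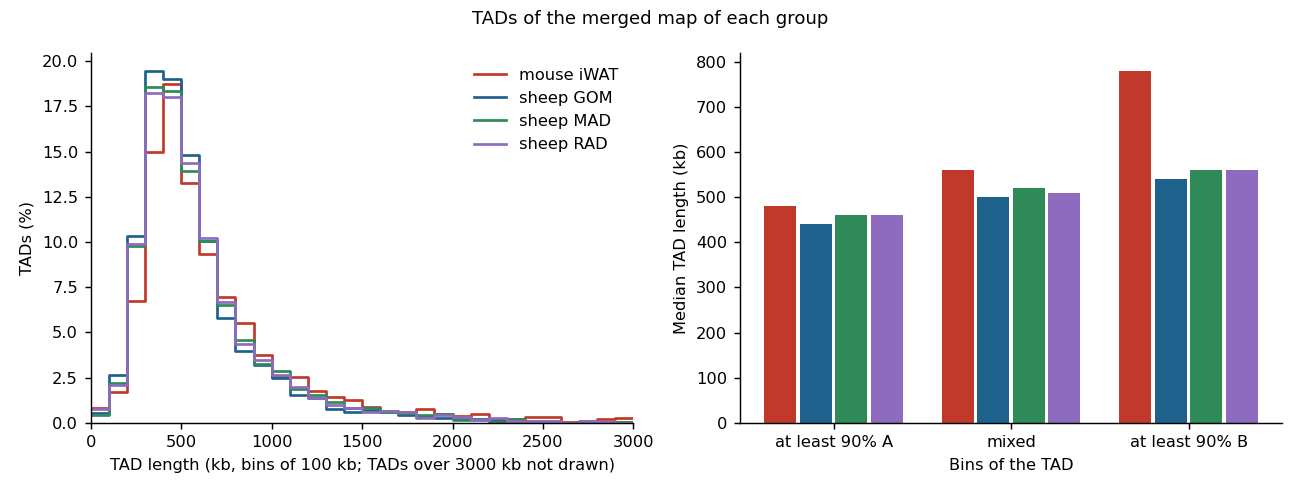
Left, percentage of TADs by length in kb for the merged map of each group. Right, median TAD length in kb of TADs with at least 90% of bins in A, with mixed bins and with at least 90% of bins in B. Bars are in the order mouse iWAT, sheep GOM, MAD and RAD in the colours of the left panel, and each bar is 1 merged map without error. The mouse bar for B stands at 780 kb against 540 to 560 kb in sheep.

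The longest TADs lay in B. In mouse the first 2 lay within the B runs on chromosomes 15 and 14 described above, and in sheep all 3 overlapped the B runs described above but reached beyond them. In mouse the longest TAD (11.56 Mb) lay on chromosome 15 from 12940001 to 24500000 and held 6 protein-coding genes, 5 of them cadherins (*Cdh12*, *Cdh18*, *Cdh10*, *Cdh6* and *Cdh9*). Its mean index was -5.61 and -5.26 in the pools. The second lay on chromosome 14 from 87800001 to 97160000 (9.36 Mb), with *Pcdh9*, *Klhl1*, *Pcdh20* and *Ccdc202*. The third lay on chromosome 5 from 77660001 to 86140000 (8.48 Mb), with *Adgrl3*, a latrophilin of the synapse, *Epha5*, an ephrin receptor, and 2 more genes. In sheep the same 3 regions gave the longest TADs of every depot. The first lay on chromosome 6, began at 55340001 in GOM and RAD and at 55360001 in MAD, and was 5.74, 5.66 and 5.72 Mb long in GOM, MAD and RAD. The second, also on chromosome 6, ended at 89020000 in GOM and RAD and at 89000000 in MAD and was 4.88, 5.42 and 5.44 Mb long. The third, on chromosome 1, began at 85440001 in GOM and MAD and at 85420001 in RAD and was 4.24, 4.22 and 4.24 Mb long. No bin of the 3 mouse TADs overlapped an assembly gap.

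TAD boundaries lay at compartment edges more often than other bins in both species. For edges between runs of at least 100 kb, 443 of 2899 mouse boundaries (15.3%) lay within 1 bin of an edge, where 4.23% of all bins did, a ratio of 3.61. In sheep the shares were 10.2, 10.1 and 10.4% in GOM, MAD and RAD against 3.69 to 3.73% of all bins, with ratios of 2.72 to 2.80. Read from the edges, 35.4% of 1251 mouse edges and 34.3 to 35.9% of 1197 to 1213 sheep edges had a boundary within 1 bin. The number of such edges per 100 Mb was 52.2 in mouse and 45.1 to 45.7 in sheep, where a shorter run at a transition removes its edge. The count of every sign change had the opposite order, 148 per 100 Mb in mouse and 209 to 216 in sheep. When every sign change was counted as an edge, the ratios were 2.29 in mouse and 1.54 to 1.58 in sheep, and 19.1% of mouse edges and 17.7 to 18.1% of sheep edges had a boundary.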

How the data were processed

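*In situ* Hi-C libraries of 2 mouse pools and 9 sheep samples were used. Per the labels and the study's methods, the authors aligned reads with BWA, filtered them in Juicer, corrected the maps, computed coarse compartments at 100 kb and deposited an A-B index for each library, a signed score per 20-kb bin. They called TADs from the insulation score on maps of merged replicates, and the TAD positions were deposited with no score. For comparisons between species they state that the merged data were reduced to a similar number of valid contacts per comparison. Whether the mouse and sheep TAD maps used here were matched to each other in this way was not checked. RNA-seq files were not used here. Bin numbers per chromosome matched GRCm39, from which gaps, GC content and GENCODE M39 genes were taken. No genome of the sheep build was used.

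Groups were taken from the labels, and sheep were numbered there, so that a number marks an animal across depots. Deviations from the depot means correlated at 0.153 (0.0340 to 0.277) for the 9 pairs of libraries from the same animal and at -0.0766 between animals. Share of A, run lengths and SD were computed per library in Python 3.11.15 with numpy 2.4.6, pandas 2.3.3 and scipy 1.17.1, and figures were drawn with matplotlib 3.10.9. Species were compared with exact permutation tests over the 10 divisions of 2 pools and 3 sheep, and depots over the 280 divisions of 9 libraries, or the 36 within animals. P-values were adjusted by Benjamini-Hochberg. A mouse bin that overlapped a gap was left out and ended a run. Placeholder bins were found as series of adjacent bins that differed by less than 0.003 within 0.6 of 0, and single bins within 0.01 of the curve through them. They, the windows of 40 to 400 kb and the averages over libraries were alternatives added after seeing the data. Regions, chromosomes, TADs and genes were named by rule, as the 3 longest runs and TADs, the extremes over chromosomes, and the genes of each of 9 lists in the 2 longest and 2 shortest runs. The members and lists were chosen with earlier results of these data known. *Ctnna3* and the genes of the longest TADs lie outside that rule and were named after their values were seen. A gene that the rule names is not reported here. The run and test functions were tested on simulated data. Whether sheep bins hold assembly gaps, and the study's contact counts per library, were not analysed here.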

Additional observations from a re-analysis of the deposited data

Results flagged for a closer look

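The relation of run N50 to autosome length had opposite signs in mouse and sheep in every library. The mean rank correlation was 0.453 over the mouse pools and -0.416 over the sheep libraries. The difference was not tested, since autosomes of a library are not independent. Without placeholder bins the means were 0.509 and -0.466, and in 100-kb windows without placeholder bins they were 0.404 (0.367 and 0.440) and -0.402 (-0.462 to -0.328). Within the 17 sheep autosomes of 60 to 200 Mb, the range of the mouse autosomes, the sheep mean was -0.486.

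The SD of the index had a mean rank correlation with autosome length of 0.121 in mouse and -0.503 in sheep, also with opposite signs in every library, and this difference was not tested either. Without placeholder bins the values were 0.138 and -0.502.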

How the results depend on the processing

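All differences are mouse minus sheep. With libraries as units the exact permutation *p* fell from 0.1 to 0.0182 with the differences as before (share of A -2.82 points, run N50 1101 kb, median run 30 kb, single-bin runs -7.91 points, SD 0.308). The run N50 difference turned to -61.1 kb in 100-kb windows and to -22.2 kb in windows of 400 kb without placeholder bins. The share of A difference became 0.000377 points when each library's median was subtracted, which sets both shares to 50 by construction. Single-bin runs differed by 1.33 points in maps averaged over all libraries of a species (9 against 2), but by -10.7 points in maps of 2 averaged libraries. The TAD length difference of 46.7 kb became 233 kb for the length-weighted median and 26.7 kb without TADs over 2 Mb. Leaving out each library in turn gave -3.70 to -1.94 points for the share of A, 1091 to 1111 kb for N50, 20 to 40 kb for the median run, -8.78 to -7.04 points for single-bin runs and 40 to 50 kb for TAD length (maps left out). The SD difference was 0.132 without mouse pool 1 and 0.484 without pool 2, and within this range otherwise. With the animal as a replicate block the depot difference in share of A, 2.02 points from highest to lowest depot, had an exact permutation *p* of 0.139. Without the block it was 0.0464 before and 0.139 after adjustment. No other depot result had an exact permutation *p* below 0.05. Leave-one-out values were 1.59 to 2.46 points (share of A), 16.7 to 66.7 kb (N50) and 0.00237 to 0.0872 (SD).

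The 2 mouse pools and 3 sheep cannot give a *p* below 0.1, or 0.25 with 1 pool left out. The index carries no depth, and the study's contact counts were not used here, so the precision of single bins was not estimated.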
